A study of Mus musculus with 56 samples.

Results

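Tbx6, Kif22, Spn, Zg16, AI467606 and 4930451I11Rik are genes of the Sult1a1 to Spn interval of mouse chromosome 7, the counterpart of human 16p11.2, and each gave a low signal in the tissues of wt mice. They are 6 of the 26 interval genes that had a probe set of their own, and each was read from 1 of the 41155 probe sets of the array. The genes were chosen by their low wt signal, with the Spn signal of Dup/+ liver in view, and were then taken by symbol. Those low signals and that Spn difference are therefore described here without being counted as findings. The question for each gene and tissue was whether losing or gaining a copy of the interval moved its signal.

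Expression was measured in the hippocampus and striatum of 4 Del/+, 8 wt and 4 Dup/+ samples each, and in the cerebellum and liver of 3 Del/+, 6 wt and 3 Dup/+ samples each, on 56 Affymetrix Mouse Gene 2.1 ST arrays. All samples came from adult male mice of strain C57BL/6N, which carry 1 copy of the interval in Del/+, 2 in wt and 3 in Dup/+. Both alleles came from loxP sites placed upstream of Sult1a1 and downstream of Spn, which recombined in trans in females that expressed Cre from the Hprt locus, so Spn is the last gene before the distal site. The wt arrays served both carrier groups, and the comparisons of Del/+ and of Dup/+ with wt share them.

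An array reports the hybridization signal of a set of short probes, and a transcript that is absent still leaves a signal from probes that bind other RNA. Tbx6 is a T-box transcription factor of the presomitic mesoderm, where it directs the fate of paraxial mesoderm and the segmentation of somites. Kif22 is a chromokinesin, a motor that binds DNA and moves chromosomes in mitosis. Spn (CD43, leukosialin) is a heavily glycosylated protein of the surface of T cells and other leukocytes. Zg16 is a lectin of the zymogen granules of the pancreas and of the mucus of intestinal goblet cells. The protein of 4930451I11Rik sits in the membrane of sperm and acts in fertilization in mice, and no role is given here for AI467606, the counterpart of human C16orf54.

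All 6 genes are annotated as protein-coding on chromosome 7 (GRCm38.p6). Tbx6 occupies 126781483 to 126785548 on the plus strand, with Ypel3 973 bases to one side and Ppp4c 318 bases to the other. 4930451I11Rik lies at 126830468 to 126831540 on the minus strand, 249 bases from Tlcd3b. Kif22, at 127027729 to 127042467 on the minus strand, starts 541 bases after Maz. Zg16 follows at 127050156 to 127052675 and AI467606 at 127090780 to 127094049 on the plus strand. Spn, at 127123637 to 127145552 on the minus strand, comes 1608 bases after Qprt and closes the interval. Spn and Kif22 have pseudogenes on other chromosomes, Spn-ps at 90891396 to 90898476 of chromosome 15 and Kif22-ps at 67585049 to 67587101 of chromosome 1. Signal shared with these copies cannot be told apart from that of the genes, so the values of Spn and Kif22 are uncertain to that extent.

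The promoters of Tbx6, Kif22 and Spn, from the RefSeq promoter table (GRCm38.p6), are shown because these are the 3 genes with an unadjusted p under 0.05 for copy number in some tissue, given further on. Each window runs from 250 bases before to 50 bases after the transcript start that the table uses, 5′ to 3′ on the strand of the gene, at chr7:126781233-126781532 for Tbx6, chr7:127042371-127042670 for Kif22 and chr7:127137774-127138073 for Spn. That start is the end of the annotated gene for Tbx6 and lies 47 bases inside the gene for Kif22, but 7729 bases inside it for Spn. Capitals mark a match on either strand to TATAAA (the TATA box), GGGCGG (Sp1), AGGAAG (the ETS factors) or CCAAT (the CCAAT box), which were searched as spelled and do not overlap one another here.
Tbx6: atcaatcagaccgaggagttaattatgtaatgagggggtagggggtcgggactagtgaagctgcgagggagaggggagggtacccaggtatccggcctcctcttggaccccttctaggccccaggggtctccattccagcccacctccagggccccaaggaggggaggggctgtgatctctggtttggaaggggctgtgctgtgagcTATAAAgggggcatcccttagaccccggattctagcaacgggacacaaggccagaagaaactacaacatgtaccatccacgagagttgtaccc
Kif22: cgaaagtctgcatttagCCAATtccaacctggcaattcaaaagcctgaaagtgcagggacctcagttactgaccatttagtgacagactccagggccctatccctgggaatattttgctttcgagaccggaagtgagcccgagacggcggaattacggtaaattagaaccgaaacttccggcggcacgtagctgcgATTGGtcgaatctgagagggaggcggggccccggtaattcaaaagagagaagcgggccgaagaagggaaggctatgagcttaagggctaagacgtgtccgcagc
Spn: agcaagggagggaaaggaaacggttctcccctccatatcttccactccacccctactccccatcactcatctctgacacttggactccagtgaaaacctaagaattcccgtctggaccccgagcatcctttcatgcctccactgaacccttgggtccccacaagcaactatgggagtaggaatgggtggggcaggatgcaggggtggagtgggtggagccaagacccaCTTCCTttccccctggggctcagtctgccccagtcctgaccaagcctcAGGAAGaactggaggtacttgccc
The Tbx6 window holds a TATA box 43 bases before the start and no other of these motifs. Kif22 holds CCAAT boxes 233 bases before the start on its own strand and 54 bases before it on the other. Spn holds the ETS letters 22 bases before the start on the opposite strand and at base 27 after it. Such letters are common, since among 32851 promoters of this length 13.6% hold the TATA box, 35.7% the Sp1 letters, 35.4% the ETS letters and 37.4% the CCAAT box. Of the other members, AI467606 holds the ETS letters 201 bases before its start, 4930451I11Rik holds none of the motifs, and Zg16 is named only. The GC content was 57.7% for Tbx6, 53% for Kif22 and 57.3% for Spn, against a median of 52.7% over all promoters.

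The labels of the arrays were checked on the other genes of the interval. Their mean log2 signal, set against the wt mean of the tissue, lay between -0.75 and -0.40 on every Del/+ array, between -0.12 and 0.10 on every wt array and between 0.28 and 0.50 on every Dup/+ array. Sample numbers shared between tissues kept the same genotype, except number 17, which marks a Del/+ sample of the cerebellum but wt samples of hippocampus and liver. Its 3 arrays (-0.75, 0.03 and -0.02) each matched their own label. Marker genes of each tissue were above background in its wt samples, on 9 of 9 probe sets for hippocampus, 6 of 6 for striatum, 9 of 9 for cerebellum and 10 of 10 for liver. Many of them also passed in wt samples of another brain region. In hippocampus 6 of 6 striatum markers and 7 of 9 cerebellum markers did so. Striatum had 6 of 9 hippocampus markers and 7 of 9 cerebellum markers above background. The hippocampus, cerebellum and liver lists reached their full count only in their own tissue. These counts therefore cannot exclude a swapped brain label. Nothing in the labels says whether arrays of a group came from separate mice, so the p-values measure the spread between these samples.

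In wt mice Tbx6 stood above a limit set high among receptor genes of the nose, and the other members stood closer to that limit or below it. Background was set from 1463 probe sets for receptors of the olfactory and vomeronasal families, as the 95th percentile of their wt means, and this limit was 4.15 (hippocampus), 4.13 (striatum), 4.10 (cerebellum) and 3.19 (liver). The medians of these receptors were lower, at 2.41, 2.42, 2.43 and 1.93. Tbx6, Kif22, Spn, AI467606 and 4930451I11Rik lay above those medians in every tissue. Signals of different probe sets are not on one scale of abundance, and these levels only place each gene against that limit. Tbx6 was above it in all 4 tissues, with wt means of 5.01 ± 0.31 (SD, n = 8), 5.01 ± 0.17 (n = 8), 5.40 ± 0.2 (n = 6) and 3.90 ± 0.22 (n = 6) in the hippocampus, striatum, cerebellum and liver. These values lie 0.86, 0.88, 1.30 and 0.71 above the limit on the log2 scale. Against the 99th percentile of the same receptors (5.51, 5.52, 5.44 and 4.20) Tbx6 was above background in 0 of the 4 tissues, as was each other member. Spn and 4930451I11Rik exceeded the limit in the liver, at 3.57 ± 0.14 and 3.64 ± 0.18 (n = 6 each), on all 6 wt arrays. In brain, Kif22 (striatum, 4.15) and AI467606 and 4930451I11Rik (cerebellum, 4.23 and 4.20) exceeded it by 0.02, 0.13 and 0.10, less than their own SD of 0.11, 0.26 and 0.34. Zg16 had the lowest wt means, 2.41, 2.39, 2.15 and 2.26, and none of its 56 arrays reached the limit. Between the 3 brain regions, which were normalized together, the wt ranges of each gene overlapped for every pair of regions. Brain and liver arrays were normalized apart, and their levels are not compared.

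**Figure D1:**
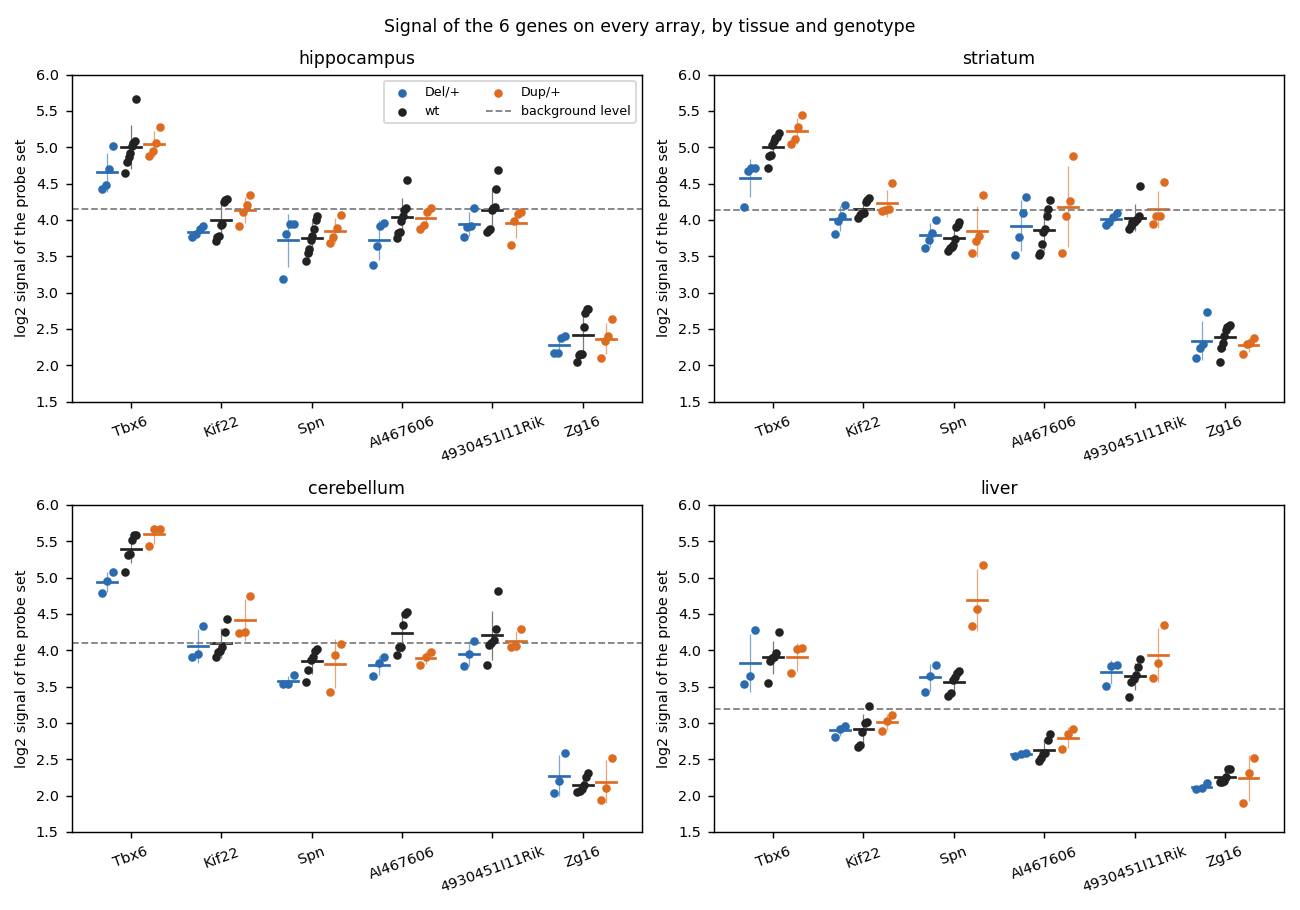
Log2 signal of each of the 6 genes on every array (points), by genotype (blue Del/+, black wt, orange Dup/+), in 4 panels for the tissues; horizontal bars are group means, vertical lines 1 SD, and the dashed line the background level. Most groups overlap, while Spn in liver has its 3 Dup/+ arrays at 4.33, 4.57 and 5.17 above all wt arrays.

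No member passed the test for copy number in any tissue. A slope of log2 signal was taken on the number of copies, coded -1, 0 and 1 for Del/+, wt and Dup/+, and was fitted with limma over all probe sets of a tissue with Benjamini-Hochberg adjustment and a threshold of 0.05. It called 0 of the 6 genes in the hippocampus, where 0.0705% of all probe sets were called. It also called 0 in the striatum (0.0583% of all), cerebellum (0.0583%) and liver (0.0364%). At an unadjusted p under 0.05, 1 member rose with copy number in each tissue, where 2.76%, 3.70%, 3.16% and 2.98% of all probe sets did. These were Kif22 in the hippocampus, Tbx6 in both striatum and cerebellum, and Spn in the liver. The liver count rests on Spn, whose Dup/+ liver signal took part in choosing the genes, so that count is not a finding. Of the 24 pairs of gene and tissue, 22 had a slope above 0, against 50%, 49.2%, 49.6% and 49.5% of all probe sets in the 4 tissues. The pairs are not independent, since the genes of a tissue share their arrays, and Spn in the liver is among the 22. The median slope of the 6 genes was 0.11 (hippocampus), 0.09 (striatum), 0.10 (cerebellum) and 0.08 (liver), while the medians over all probe sets lay between -0.002 and 0.

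Each carrier group against wt gave the same counts. In Del/+ mice 0 of 6 members were called in hippocampus (0.0510% of all probe sets), striatum (0.0437%), cerebellum (0.0340%) or liver (0.00486%). In Dup/+ mice 0 of 6 were called in hippocampus (0.0121%), striatum (0.00729%), cerebellum (0% of all) or liver (0% of all). At an unadjusted p under 0.05 and in the downward direction, Del/+ gave 2 members in hippocampus (3.12% of all), 1 in striatum (2.09%), 2 in cerebellum (2.52%) and 0 in liver (2.03%). All of these were Tbx6 or AI467606. In Dup/+ mice at that level, 0 members rose (2.18% of all) or fell (2.39%) in the hippocampus, and 0 rose (4.53%) or fell (5.07%) in the striatum. AI467606 fell in the cerebellum (1.91% of all) and 0 members rose there (2.07%), while in the liver Spn rose (2.05%) and 0 members fell (1.94%). That rise of Spn took part in choosing the genes. Between brain regions 0 of 6 slopes differed, at the adjusted and at the unadjusted level, where 0%, 0% and 0.00486% of all probe sets passed after adjustment.

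Tbx6 had the highest slope of the 6 genes in each brain region, and none of the 3 passed the threshold. In the striatum its log2 signal was 4.18, 4.67, 4.71 and 4.72 in Del/+ and 5.05, 5.11, 5.28 and 5.45 in Dup/+ mice, with wt arrays from 4.71 to 5.20 around a median of 5.06. Every Dup/+ array was above every Del/+ array, which held for 1.63% of all probe sets, while both groups overlapped wt. The slope was 0.33 (standard error 0.069, 95% interval 0.18 to 0.47), with an unadjusted p of 2.08e-04 and an adjusted p of 0.231 in limma. Within the 3 runs of 24 array numbers that the titles allow to be told apart, the Dup/+ minus Del/+ difference per copy was 0.34, 0.37 and 0.22. In the cerebellum the signal was 4.79, 4.95 and 5.07 in Del/+ and 5.44, 5.67 and 5.67 in Dup/+ mice, with wt arrays from 5.08 to 5.59 around a median of 5.42. All 3 Del/+ arrays lay below all 6 wt arrays, as 1.29% of all probe sets did, and below all Dup/+ arrays, as 5.19% did. The slope was again 0.33 (standard error 0.073, 95% interval 0.17 to 0.49, adjusted p = 0.449), and 0.30, 0.33 and 0.36 within the runs.

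In the hippocampus and liver the Tbx6 groups were closer. Hippocampal signals were 4.42, 4.48, 4.70 and 5.01 in Del/+ and 4.88, 4.95, 5.06 and 5.28 in Dup/+ mice, and the wt arrays ran from 4.65 to 5.67 with a median of 4.97. All 3 groups overlapped, and the slope was 0.19 (95% interval -0.00 to 0.39, adjusted p = 0.905). The slope of the striatum exceeded that of the hippocampus by 0.13 (95% interval -0.09 to 0.36, adjusted p = 0.967), so a difference between them was not shown. Liver signals were 3.54, 3.64 and 4.28 in Del/+ and 3.68, 4.01 and 4.03 in Dup/+ mice, within or next to the wt range of 3.55 to 4.25, and the slope was 0.04 (95% interval -0.17 to 0.26). In the brain the loss of a copy gave Del/+ minus wt differences of -0.36, -0.44 and -0.46 in the hippocampus, striatum and cerebellum, which are ratios of 0.782, 0.739 and 0.728 on the linear scale. The gain of a copy gave 0.03, 0.21 and 0.20. A signal in proportion to copy number would move by -1 and 0.58.

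Markers of the striatum were low on some of the Dup/+ arrays of that region. The mean signal of the 6 measured markers was 8.66, 9.23, 10.13 and 10.42 in Dup/+ mice, against 9.97 to 10.53 in wt and 10.12 to 10.49 in Del/+ mice, so that 2 Dup/+ arrays lay below all others. Dup/+ minus wt was -1.01 to -0.53 for these markers, with an unadjusted p under 0.05 for 6 and an adjusted p of 0.338 at the smallest, while Del/+ minus wt was -0.07 to 0.08. The Dup/+ arrays also differed from wt in genes on the cerebellum list, of which 0 passed after adjustment. Among them were Zic1 (0.82, standard error 0.25), Zic2 (0.60) and Calb1 (-0.39). Of the 9 genes on that list 2 rose and 1 fell at the unadjusted level, and of the 9 hippocampus markers 2 rose and 0 fell. Ttr, on the liver list, had a slope of 0.88 (adjusted p = 0.662). Without the 2 Dup/+ arrays of low striatal markers, a choice made after seeing the data, the Tbx6 slope was 0.34 (adjusted p = 0.66). Other regions had marker shifts too, of which 0 passed after adjustment. In Dup/+ hippocampus 6 of 6 striatum markers were above wt (median difference 0.61). In Del/+ hippocampus 9 of 9 hippocampus markers were, 3 of them at an unadjusted p under 0.05 in limma. In the cerebellum 9 of 10 liver genes were above wt in Del/+ mice, by up to 2.59, and 9 of 10 in Dup/+ mice, by up to 1.53. Their bearing on the 6 genes was not tested.

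The other T-box genes and the genes of the tissue that uses Tbx6 had no calls. Of 15 other T-box genes 0 were called in any tissue, and over the 4 tissues 2 rose and 1 fell at an unadjusted p under 0.05, with median slopes of -0.01, 0.00, -0.04 and -0.01, and the gene with the smallest p was Tbx18 in the striatum (0.17, adjusted p = 0.642) and liver (-0.23, adjusted p = 0.704). Of 17 genes of the presomitic mesoderm, among them Msgn1, Wnt3a and Hes7, 0 were called, with median slopes from -0.01 to 0.01. Over the 4 tissues 2 fell at the unadjusted level. In each tissue 2.76% to 3.70% of all probe sets rose at that level.

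Kif22 gave signals near the limit in brain and below it in liver. In the hippocampus it was 3.76 to 3.91 in Del/+ and 3.91 to 4.34 in Dup/+ mice around a wt range of 3.71 to 4.29, and the slope was 0.15 (standard error 0.067, unadjusted p = 0.0337, adjusted p = 0.871). Every Dup/+ array was above every Del/+ array, as in 1.91% of all probe sets, although by a margin lost in rounding, and both groups lay mostly inside the wt range. The slopes elsewhere were 0.11 (striatum), 0.18 (cerebellum) and 0.06 (liver), each with a 95% interval that held 0. In the cerebellum 1 Dup/+ array was at 4.75 and the others at 4.24 and 4.25, and leaving it out took Dup/+ minus wt from 0.32 to 0.15. Of 12 mitotic kinesins 0 were called, with median slopes of 0.03, -0.05, 0.01 and -0.03. Over the 4 tissues 2 rose at the unadjusted level, Cenpe in the hippocampus (0.09) and Kif2c in the cerebellum (0.21). In each tissue 2.76% to 3.70% of all probe sets rose at that level. The smallest adjusted p in limma was that of Kif20a in the striatum (slope -0.10, adjusted p = 0.716). In wt 1 to 3 of these kinesins were above background. Of 19 genes of dividing cells 0 were called, and 1 probe set rose and 5 fell at the unadjusted level over the 4 tissues. In wt 10 to 16 of their 20 probe sets were above background.

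Spn stood out in the liver of Dup/+ mice, the value that took part in choosing these genes. Its log2 signal there was 4.33, 4.57 and 5.17 in Dup/+ mice, against 3.37, 3.41, 3.59, 3.63, 3.68 and 3.72 in wt and 3.43, 3.65 and 3.80 in Del/+ mice. Every Dup/+ array was above every wt array, as in 0.957% of all probe sets, and above every Del/+ array, as in 5.50%, while Del/+ and wt overlapped. The Dup/+ mean exceeded wt by 1.12 on the log2 scale (standard error 0.17), a 2.18-fold difference with a 95% interval of 1.7 to 2.8, where a signal in proportion to copy number would rise by 0.58. It ranked 2 by p and 10 by size among 41155 probe sets, with an adjusted p of 0.320 in limma. Within the runs of array numbers, each with 1 Dup/+ and 2 wt arrays, it was 1.78, 0.93 and 0.66. Leaving out 1 Dup/+ array at a time gave 0.89 to 1.30. Del/+ minus wt was 0.06 (95% interval -0.30 to 0.43).

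In the brain Spn showed nothing of this kind. Its 44 brain arrays lay between 3.18 and 4.34, 1 of them above background, and the Dup/+ minus wt differences were 0.10, 0.09 and -0.03 in the hippocampus, striatum and cerebellum, with upper ends of the 95% interval at 0.41, 0.37 and 0.28. Brain and liver were normalized apart, and a difference between the tissues was not tested. The next interval gene, Qprt, had 9.57, 10.24 and 10.71 as means of Del/+, wt and Dup/+ liver, with a slope of 0.57 that passed (adjusted p = 0.00444). The probe set of Spn-ps was at 3.16 in wt and 3.34 in Dup/+ liver, a difference of 0.18 (standard error 0.18).

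No listed marker of blood cells passed the test in Dup/+ liver, where 0% of all probe sets passed and Spn did not either. The count of 0 therefore says nothing about these cells. At an unadjusted p under 0.05 Ly6c2 rose, as 2.05% of all probe sets did, and Cd28 fell, as 1.94% did. Dup/+ against wt called 0 probe sets of the lists for all leukocytes, T and NK cells, B cells, neutrophils, Kupffer cells and monocytes, erythroid cells, or partners of Spn at the cell surface. In that order their median differences were 0.12 (14 probe sets), 0.01 (17), 0.07 (16), 0.05 (13), 0.08 (15), 0.03 (9) and -0.05 (13), against 0.003 over all probe sets. Above 0 lay 10 of 14, 9 of 17, 10 of 16, 9 of 13, 11 of 15, 5 of 9 and 5 of 13, where 50.9% of all probe sets did. In Del/+ liver, where Spn did not rise, the same lists had 12 of 14, 7 of 17, 5 of 16, 4 of 13, 13 of 15, 6 of 9 and 6 of 13 above 0. The 14 genes of all leukocytes were above background in wt liver, and their mean signal ran from 5.31 to 5.67 in Dup/+ and from 5.02 to 5.72 in wt mice. The T and NK cell genes had a mean of 3.37 to 3.50 in Dup/+ and 3.28 to 3.63 in wt mice. The highest single values were those of Marco, a scavenger receptor of macrophages (0.79, standard error 0.41), and Ly6c2, a marker of monocytes (0.58, standard error 0.16, unadjusted p = 0.00414), both with an adjusted p that rounded to 1. Ly6c2 ran from 3.86 to 4.14 in Dup/+ and from 3.07 to 3.83 in wt mice, without overlap, as in 0.957% of all probe sets. On the same list of Kupffer cells and monocytes, Adgre1 (-0.10), Cd163 (-0.15), Itgam (-0.01) and Ccr2 (-0.03) lay below 0. The other 11 of its 15 probe sets lay above. The part of these cells in the Spn difference was not tested beyond these values. In bulk tissue more cells of a type and more RNA per cell cannot be told apart.

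**Figure D2:**
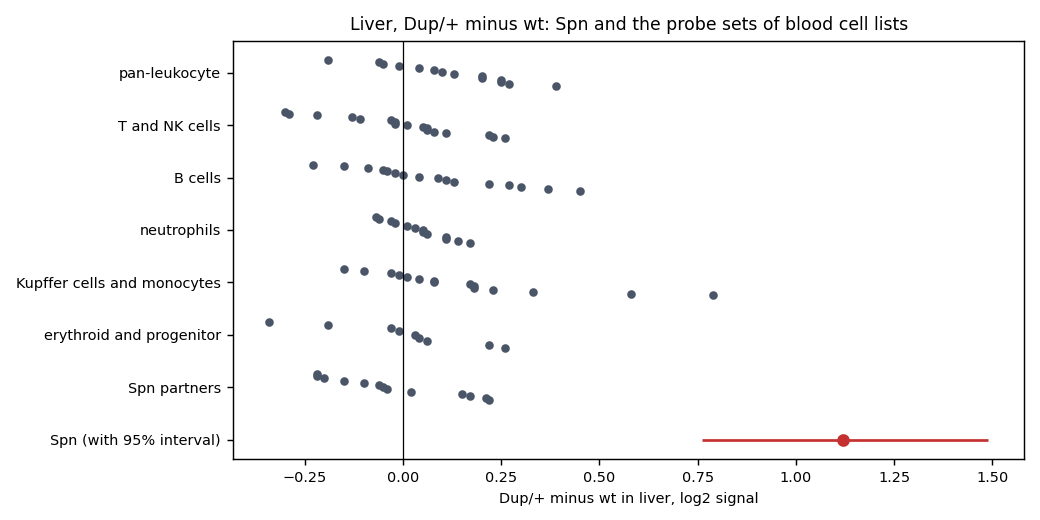
Dup/+ minus wt difference in liver, in log2 signal (x axis), for each probe set of 7 lists of blood cell genes and Spn partners (grey points, 1 row per list) and for Spn (red, with its 95% interval). Spn lies at 1.12, to the right of all listed probe sets, the highest of which is Marco at 0.79.

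AI467606 was lower in both carrier groups than in wt mice in the cerebellum. Its signal there was 3.65, 3.83 and 3.90 in Del/+ and 3.80, 3.90 and 3.98 in Dup/+ mice, and 3.93 to 4.53 in wt with a median of 4.19. All Del/+ arrays were below all wt arrays, as in 1.29% of all probe sets, and the Dup/+ arrays overlapped wt by 1 array. The differences from wt were -0.43 (standard error 0.14, unadjusted p = 0.0101, adjusted p = 0.999) in Del/+ and -0.34 (unadjusted p = 0.0361, adjusted p = 1) in Dup/+ mice, which share the wt arrays. A slope on copy number cannot follow such a pattern, and it was 0.05 (95% interval -0.19 to 0.29). In the hippocampus Del/+ minus wt was -0.31 (adjusted p = 0.81), and in the striatum the Dup/+ arrays spread from 3.54 to 4.88, so that a slope of 0.13 had a 95% interval of -0.13 to 0.39, and it was -0.02 without the 2 Dup/+ arrays of low striatal markers. In the liver all 12 arrays were below background, between 2.48 and 2.91, with every Dup/+ array above every Del/+ array, as in 5.50% of all probe sets.

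No slope of 4930451I11Rik or Zg16 had a 95% interval that left out 0. 4930451I11Rik had slopes of 0.01, 0.07, 0.09 and 0.12 in the 4 tissues with upper ends of the 95% interval of 0.20, 0.21, 0.31 and 0.33. In liver, where all its wt arrays were above background, its arrays were at 3.62, 3.83 and 4.35 in Dup/+ mice and at 3.36 to 3.88 in wt, and the difference of 0.30 (95% interval -0.06 to 0.65) was 0.09 without the highest of them. Zg16 had slopes of 0.04, -0.03, -0.04 and 0.06. In the liver its Del/+ arrays, 2.09, 2.11 and 2.17, were all below the wt arrays, which began at 2.18, as in 1.15% of all probe sets, at a difference of -0.13 (95% interval -0.40 to 0.14) and far below background. Of 10 goblet cell genes and 14 genes of pancreatic acinar cells, the cells known to make Zg16, 0 were called in any tissue. Over the 4 tissues 1 and 4 probe sets rose at the unadjusted level and 2 and 0 fell. In each tissue 2.76% to 3.70% of all probe sets rose at that level. The smallest p among them was that of Tff3, a peptide of mucus, in the liver (slope -0.59, adjusted p = 0.426).

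**Figure D3:**
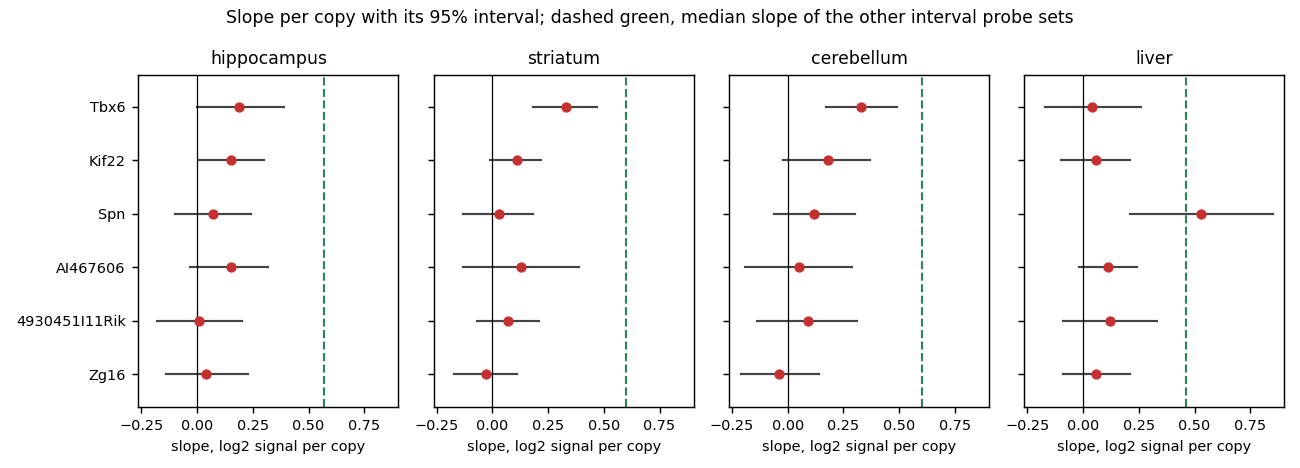
Slope of log2 signal per copy of the interval (x axis) for the 6 genes in the 4 tissues, with 95% intervals as bars, 0 as a solid line and the median slope of the other interval probe sets as a dashed green line (0.57, 0.60, 0.60 and 0.46). The only interval that reaches the dashed line is that of Spn in liver, 0.21 to 0.85.

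The other genes of the interval moved far more. Of their 22 probe sets (20 genes), 19 (hippocampus), 17 (striatum), 17 (cerebellum) and 9 (liver) rose with copy number and 0 fell. Their median slope was 0.57, 0.60, 0.60 and 0.46. For each member the 95% interval of the slope lay below that median in every tissue, except for Spn in the liver. Direct neighbours were among those that passed: Ypel3, on one side of Tbx6, had slopes of 0.56, 0.53, 0.60 and 0.64 and Ppp4c, on the other, 0.57, 0.63, 0.60 and 0.66, and Maz, next to Kif22, had 0.63, 0.66, 0.62 and 0.53. Tlcd3b, next to 4930451I11Rik, passed in the 3 brain regions (0.47, 0.63 and 0.58) and had 0.04 in the liver, where its wt signal was 3.35. Qprt, next to both AI467606 and Spn, passed in the liver (0.57) but not in the 3 brain regions (0.10, 0.22 and 0.41).

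Slope and wt signal were correlated across the interval, with exceptions at low signal. Over the 28 interval probe sets, members included, the Pearson correlation of slope with wt signal was 0.79, 0.86, 0.82 and 0.77 in the 4 tissues (Spearman 0.74, 0.83, 0.82 and 0.75). Without the members it was 0.61, 0.76, 0.64 and 0.77. The points share arrays and differ in their probes, and the values are descriptions. Interval genes outside the 6 also had wt signals under that of Tbx6, the highest member, with 4 such probe sets in each brain region and 8 in the liver. Nearest to Tbx6 in the hippocampus were Gdpd3, a lysophospholipase D (wt signal 4.63), Sult1a1, a sulfotransferase (5.46), and Qprt, an enzyme of NAD synthesis (4.42). Of these Gdpd3 (slope 0.36, adjusted p = 0.00735) and Sult1a1 (0.47, adjusted p = 0.00178) passed and Qprt (0.10, adjusted p = 0.949) did not. In the striatum the nearest were Sult1a1 (0.53, adjusted p = 0.0162), Gdpd3 (0.31, adjusted p = 0.193) and Cdiptos, an antisense RNA of Cdipt (0.06). In the cerebellum they were Pagr1a, Sult1a1 and Gdpd3, with slopes of 0.69, 0.48 and 0.35, of which 0 passed. In the liver the nearest were Prrt2 (wt signal 3.99), a probe set of Sez6l2 (3.68) and Hirip3 (3.59), with slopes of 0.04, 0.42 (95% interval 0.19 to 0.65) and 0.31 (0.09 to 0.53), of which 0 passed. The other probe sets of Sez6l2 had slopes of 0.06 and 0.49 at wt signals of 2.18 and 4.47, so they disagree. Below Hirip3 in signal, Gdpd3 (3.21) and Pagr1a (3.29) had liver slopes of 0.33 and 0.43, higher than those of 5 of the 6 members. Neither passed (adjusted p = 0.266 and 0.699 in limma). Cdiptos, Tlcd3b and Asphd1, also below Hirip3 in liver signal, had slopes of only 0.03, 0.04 and 0.11. Interval genes of low liver signal therefore differed in slope. Prrt2 had slopes of 0.59 to 0.67 in the brain regions, at wt signals of 10.73 to 11.44.

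**Figure D4:**
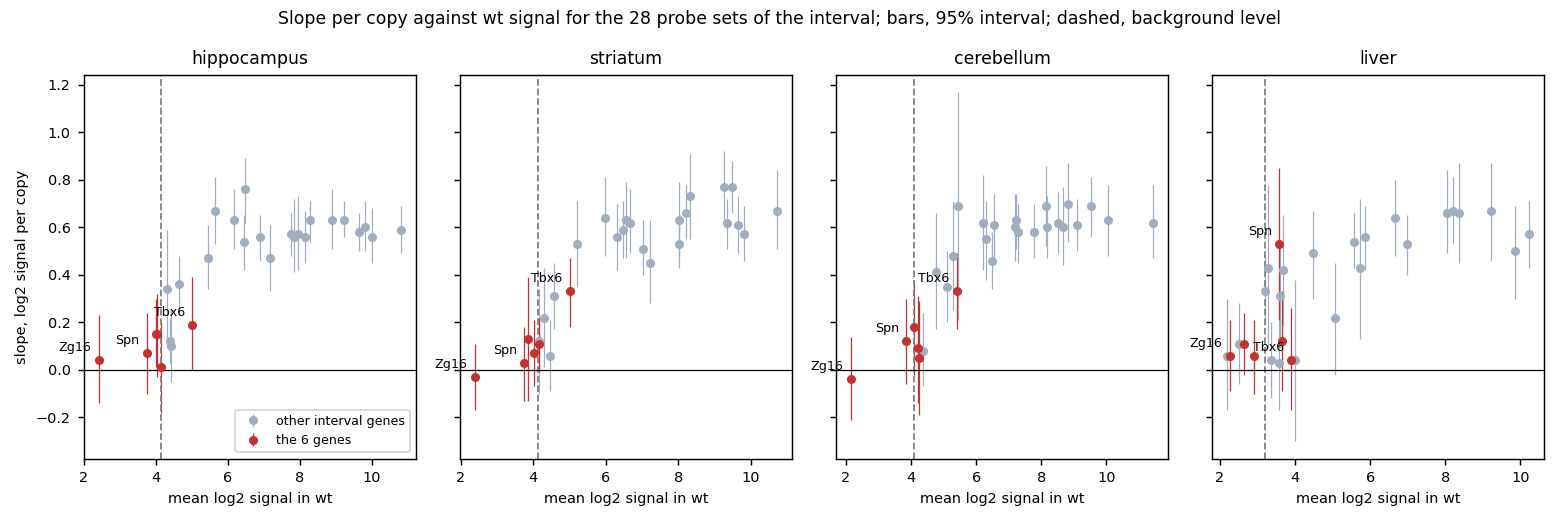
Slope per copy (y axis, log2 signal, bars 95% interval) against mean log2 signal in wt (x axis) for the 28 interval probe sets in each tissue, with the 6 genes in red, the others in grey and the background level dashed. In the 3 brain regions the red points lie at the low end of signal and slope, and in liver Spn (0.53) sits above the other red points.

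The receptor probe sets show how far slopes spread with no copy number change. Over these 1463 probe sets 0 were called in each tissue, and the central 95% of their slopes ran from -0.16 to 0.16 (hippocampus), -0.17 to 0.16 (striatum), -0.20 to 0.23 (cerebellum) and -0.18 to 0.20 (liver). The slopes of Tbx6 in the 3 brain regions and of Spn in the liver lay above these ranges, and the other 20 slopes of the 6 genes lay inside them. This is a description, since the receptors differ from the members in level and in probes. The Spn signal of Dup/+ liver also took part in choosing the genes.

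Correlations between members across arrays were taken apart in brain and liver, and a difference between them was not tested. Over the 44 brain arrays, after the mean of each region was subtracted, the highest correlation between members was 0.48, for Tbx6 and 4930451I11Rik, followed by 0.40 for Tbx6 and AI467606 and 0.36 for Tbx6 and Kif22, and the other 12 pairs lay between -0.18 and 0.34. Over the 12 liver arrays the highest were 0.63 for Spn and AI467606, 0.62 for Kif22 and AI467606 and 0.51 for AI467606 and Zg16, and the other 12 pairs lay between -0.36 and 0.46. Outside the interval the genes whose signal was most like that of Tbx6 were Gpr153 (0.58), Pkd2l1 (0.57) and Klhl30 (0.56). For 4930451I11Rik they were Gm14407 (0.74), the taste receptor Tas2r119 (0.69) and the olfactory receptor Olfr765 (0.67). In the liver, over 12 arrays, Spn was most like Mir103-1 (0.94), Mtus2 (0.89) and Hoxd10 (0.89). These correlations share arrays and the genotype groups, were picked as the highest over all named genes, and are given as descriptions.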

How the data were processed

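Each of the 56 RNA samples was hybridized to its own array (Affymetrix Mouse Gene 2.1 ST). The authors ran Affymetrix Expression Console with quantile normalization, once over the 44 brain arrays and once over the 12 liver arrays, and deposited a log2 signal for every probe set. That the scale is log2 was read from the range of 0.57 to 13.57. Background correction and probe summary are not given in the sources used here. Array medians were 4.81 to 4.89 in brain and 3.58 to 3.65 in liver, and precision is limited by how many arrays a group has. Gene names came from the platform annotation, in which 23521 probe sets have 1 gene, 1820 several and 15814 no gene.

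Slopes on copy number (coded -1, 0 and 1), Del/+ and Dup/+ against wt, and differences of slopes between brain regions were fitted with limma 3.58.1 (lmFit, eBayes) in R 4.3.3. The p-values are two-sided and adjusted by Benjamini-Hochberg over all 41155 probe sets. The filter of the methods (highest signal at least the median of all probe sets, variance above the 25th percentile) was kept as an alternative, since it removes low signals, and it left 9 of the 24 pairs of gene and tissue. The other alternatives were the log2 copy ratio, runs of 24 array numbers as a block, quantile normalization again, robust moderation with a variance trend, leaving out each Del/+ and Dup/+ array, the number in the title as a replicate block, and other background limits, to which leaving out the 2 striatal arrays of low striatum markers was added after seeing the data. The fits were tested on simulated data. Python 3.11.15 with pandas 2.3.3, numpy 2.4.6 and matplotlib 3.10.9 gave summaries and plots. Gene positions and promoters came from RefSeq tables (GRCm38.p6), in which 5 of the 6 genes had a promoter.

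Named genes were the 6 members, up to 3 genes of smallest p in each list described, the 3 most correlated genes of a member, the 3 interval genes of wt signal nearest to Tbx6, and direct neighbours. Outside this rule, Spn-ps, Marco, Adgre1 and Ccr2 were named with their values already known, as were Gdpd3, Pagr1a, Tlcd3b, Cdiptos and Asphd1 in liver. The members and lists were chosen with earlier results of these data known. A gene of the interval is not reported here.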

Additional observations from a re-analysis of the deposited data

Results flagged for a closer look

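A single array stood apart from the rest of its group in 5 of the 48 groups of at least 4 arrays that were examined, and chance alone marks about 1 group in 20. These were a wt array of the hippocampus for Tbx6 (5.67, next 5.08), a Del/+ array of the striatum for Tbx6 (4.18, next 4.67), a Dup/+ array of the striatum for Kif22 (4.51, next 4.15), a Del/+ array of the hippocampus for Spn (3.18, next 3.81) and a wt array of the striatum for 4930451I11Rik (4.47, next 4.05). Without the Tbx6 array of the striatum the slope stayed within 0.26 to 0.36, the range over all arrays left out. AI467606 moved in opposite directions in Dup/+ mice of the cerebellum and the liver. All 3 cerebellar arrays were below the wt mean (difference -0.34) and all 3 liver arrays were above it (0.17). The difference between the tissues was not tested, and the liver arrays were below background.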

How the results depend on the processing

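In every alternative, 0 of the 6 genes were called for copy number, in Del/+ or in Dup/+ mice. The adjusted p of Tbx6 in the striatum was 0.15 with the filter of the methods, 0.173 on the log2 copy ratio and 0.177 at the lowest with 1 array left out, and that of Spn in Dup/+ liver was 0.327 at the lowest. The number of members above background in wt (1 in hippocampus, 2 in striatum, 3 in cerebellum, 3 in liver) was 0 in all 4 tissues against the 99th percentile of the receptors, and against the median of all probe sets it was 1 in hippocampus, 1 in striatum, 1 in cerebellum and 2 in liver. With the array run as a block, Dup/+ minus wt of Zg16 in the hippocampus turned from -0.04 to 0.02. Leaving out the 2 striatal Dup/+ arrays of low striatum markers, an alternative chosen after seeing the data, turned 3 values in the striatum. The slope of AI467606 became -0.02 and that of Zg16 0.01, and Dup/+ minus wt of 4930451I11Rik became -0.02.

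Values near 0 changed sign when 1 array was left out. Slopes ranged from -0.03 to 0.07 for 4930451I11Rik and -0.01 to 0.11 for Spn in the hippocampus, -0.07 to 0.02 for Zg16 and -0.05 to 0.07 for Spn in the striatum, -0.02 to 0.11 for AI467606 and -0.12 to 0.04 for Zg16 in the cerebellum, and -0.02 to 0.14 for Tbx6 in the liver. Del/+ minus wt ranged from -0.11 to 0.14 for Spn in the hippocampus, -0.08 to 0.19 for AI467606, -0.05 to 0.00 for 4930451I11Rik, -0.18 to 0.03 for Zg16 and -0.03 to 0.10 for Spn in the striatum, -0.17 to 0.04 for Kif22 and -0.04 to 0.24 for Zg16 in the cerebellum, and -0.31 to 0.06 for Tbx6, -0.05 to 0.03 for Kif22 and -0.02 to 0.16 for Spn in the liver. Dup/+ minus wt ranged from -0.05 to 0.09 for Tbx6, -0.06 to 0.03 for AI467606 and -0.13 to 0.04 for Zg16 in the hippocampus, -0.01 to 0.18 for 4930451I11Rik, -0.02 to 0.12 for Kif22 and -0.07 to 0.19 for Spn in the striatum, -0.12 to 0.16 for Zg16 and -0.17 to 0.16 for Spn in the cerebellum, and -0.06 to 0.12 for Tbx6 and -0.16 to 0.15 for Zg16 in the liver. In all, 508 values of single genes under an alternative kept their direction and 41 did not. The cause of these changes was not tested.

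The number in the titles is shared between tissues, and the labels do not say that it marks a mouse. Over 22 same-number pairs of brain arrays the correlation of deviations from the group means was -0.111 to 0.078, with 0 pairs over 0.1. With that number as a replicate block, 0 members differed in slope between brain regions, as without it, and the Tbx6 difference of striatum and hippocampus was 0.13 in both. Signals near background limit what these arrays can show of the 6 genes, as does the number of 3 or 4 carrier arrays a group.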
